A study of Mus musculus with 8 samples.

Results

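The potassium channel genes of the mouse were followed in the tibialis anterior, a fast muscle at the front of the shin. They were taken as every gene whose symbol on the array starts with Kcn followed by a subfamily letter or letters and a number. This rule reads the name and no measured value, but it was chosen with earlier results of these data known. The array held 97 such genes, read by 179 probes, among 24729 genes with a current RefSeq name and 56605 probes in all. Gene expression was measured on 8 arrays with 1 dye, 4 of muscle from mice given Porphyromonas gingivalis and 4 of muscle from control mice. All mice were male C57BL/6J, 14 weeks old and fed a high-fat diet. The first group had received P. gingivalis, a bacterium that lives without oxygen in the gum pockets of periodontitis, by mouth for 6 weeks from the age of 8 weeks, as cells in 100 µL of saline through a feeding needle. Neither the bacterial dose nor the treatment of the control mice is given in the labels, and the protocol names recipient groups that match no sample title. Whole muscle was used, so fewer cells of a type and less RNA per cell cannot be told apart.

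Potassium channels let potassium ions leave or enter a cell along their gradient and so hold the resting potential and end action potentials. In skeletal muscle, inward rectifiers help to hold the resting potential and take potassium back up from the transverse tubules, channels opened by falling ATP reduce excitability when the fibre runs short of energy, and voltage-gated channels repolarise the fibre after each action potential. Other members are silent alone: the modifier subunits give no current by themselves but join pore-forming voltage-gated subunits and alter them, and the auxiliary subunits attach to the pore-forming ones.

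The group assigned to an array depends on the source. The authors' deposited value table could be matched column by column to the scanner files, and 4 of the 8 arrays carry the opposite group in it: control 3, control 4, P. gingivalis 1 and P. gingivalis 2. Results below follow the scanner files, and those under the value table's groups, or over the other 4 arrays alone, are given beside the genes of lowest p and, where the direction turned, among the alternatives in the closing section. All arrays came from 1 slide and 1 scan, with the P. gingivalis arrays in slide row 2 and the control arrays in slide row 1, so that group and row cannot be told apart. Taken in sample order, the value table's columns matched control 1, P. gingivalis 1, control 2, P. gingivalis 2 and so on. They thus alternated between the slide rows, and the cause of this order was not tested. The 75th percentile of the processed signal was 238 to 255 on P. gingivalis arrays and 275 to 306 on control arrays. Well above background were 56.3% to 57.8% of spots on P. gingivalis arrays and 56.3% to 59.3% on control arrays. Skeletal muscle fibre markers (Acta1, Ckm, Myh4, Myh1, Tnnt3 and Pvalb) were well above background on all 8 arrays. The labels do not state outright that each sample was 1 mouse, so p-values measure only the spread between these samples.

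The probes of the 5 pore-forming or modifier genes with the lowest p-values are given here because Kcng4, Kcnc4 and Kcnc1 are read by more than 1 probe. The changes of the Kcng4 probes were alike, those of Kcnc4 differed in size and those of Kcnc1 in sign. The first 30 of the 60 bases of each are printed 5′ to 3′, with the position of the whole probe on mm9 as the array's annotation gives it.
Kcns1, chr2:163989358-163989417, minus strand: ttggcatccctcagtgaactatgacctggg
Kcnf1, chr12:17179527-17179586, minus strand: atactcagagatccaaagtatctttttgct
Kcng4, chr8:122148827-122148886, minus strand: gccagctggactctgggtggacattcctag
Kcng4, chr8:122150200-122150259, minus strand: ttctcgctggagttttgcctgcgctttgtc
Kcnc4, chr3:107241564-107241623, minus strand: gggggaatttcatttcttttgtgtgtctcc
Kcnc4, chr3:107243629-107243688, minus strand: tgagttatgtaggttagatagattccagat
Kcnc1, chr7:53688622-53688681, plus strand: gccttgccgtcttgtacgacagactttttt
Kcnc1, chr7:53682767-53682826, plus strand: tgtctggagactcacgagcgcttcaacccc
Kcnc1, chr7:53693712-53693771, plus strand: gagattcgagcatgaaataaattttgtaac
A probe reports only the transcripts that hold its bases.

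At least 4 of the 8 arrays had signal well above background for 49 of the 97 genes (50.5%), through 78 of the 179 probes, against 64.5% of all 24729 named genes. Of the 97, 43 genes had a probe well above background on all 8 arrays and 41 had none on any array. The families differed in how many members were measured. Of the 15 inward rectifiers 6 were tested, of the 17 voltage-gated pore-forming genes of the Kcna to Kcnd type 10, of the 13 Kcnq and Kcnh genes 7, of the 10 modifier subunits 6, of the 12 calcium- and sodium-activated genes 7, of the 14 2-pore-domain genes 5, of the 12 auxiliary genes 7, and of the 4 RNA genes named after a channel 1. Genes never well above background on any array included Kcna3 (the main voltage-gated channel of T cells), Kcnmb1 (the smooth-muscle subunit of the large-conductance calcium-activated channel), Kcnk2, Kcnk5 (both 2-pore channels), Kcnab2 and Kcnip2 (auxiliary subunits of voltage-gated channels). The number of these genes well above background on an array was 46 to 50 in P. gingivalis muscle and 48 to 53 in control muscle, ranges that overlap.

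**Figure D1:**
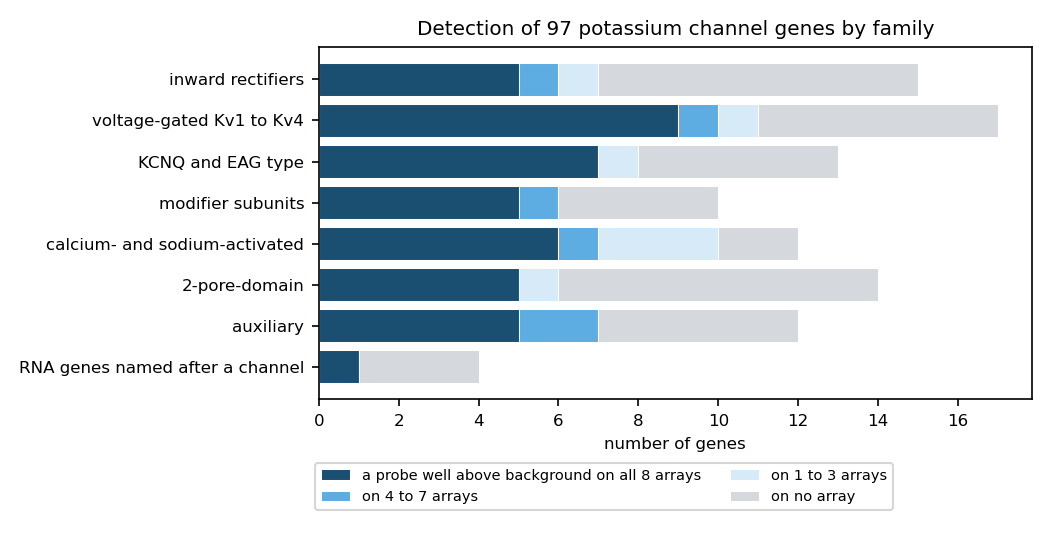
Number of potassium channel genes of each family (horizontal bars, all 97 genes). Bars are split by whether a probe stood well above background on all 8 arrays, on at least 4 but not all, on some but fewer than 4, or on none. The tested genes number 49 and those on none 41.

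Of the 49 tested genes, 6 were well above background on only some arrays, each on at least 1 array of both groups. Kcnmb2, a subunit of the large-conductance channel, was well above background on 2 P. gingivalis and 4 control arrays, and Kcne4, an auxiliary subunit, on 1 P. gingivalis and 3 control arrays. Kcnd3, a pore-forming subunit of the transient outward current, was so on 2 P. gingivalis and 3 control arrays, and Kcnj15, an inward rectifier, on 3 P. gingivalis and 4 control arrays. Kcns3 and Kcne1l were so on 3 arrays of each group. None of the 6 had an unadjusted p under 0.05. Since such a probe enters the test through the arrays where it is bright, no count over these 6 alone is given. They are part of the counts over the 49 tested genes and over the families.

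The question put to the remaining data was whether any potassium channel gene differed between muscle of mice given P. gingivalis and of control mice. No probe of the 78 passed limma's test after Benjamini-Hochberg adjustment over all 31649 tested probes, of which 0% passed. The lowest adjusted p among them was 0.329. Before adjustment, 4 of the 78 probes (5.13%) had p under 0.05, each in a different gene and all with higher signal after P. gingivalis, against 11.2% of all tested probes (4.84% higher and 6.36% lower). Counted by the brightest tested probe of each gene, this was 4 of 49 genes (8.16%) against 10.7% of 15950 genes (4.88% higher and 5.82% lower), so the share lay near or under the background. Signal was higher in P. gingivalis muscle in 20 of the 49 genes and lower in 29 (40.8% higher, against 45.8% of all genes). These counts include the 6 genes well above background on only some arrays. Of the 70 potassium channel probes well above background on all 8 arrays, 34 were higher and 36 lower (48.6% higher, against 46.1% of all such probes). With normexp, another background correction, in place of the authors' processed signal, 60 of the 78 probes were higher and 18 lower (76.9% higher, against 64.2% of all probes). After normexp, 23 of the 78 (29.5%) had unadjusted p under 0.05, all higher, where 29.7% of all probes had such a p in either direction. The median change of the 49 genes was -0.03 on the log2 scale (all genes -0.01), their range -0.33 to 0.65. Precision set a limit on each: the 95% confidence interval lay within 1.5-fold of no change in either direction for 34 of the 49 genes and within 2-fold for 46.

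**Figure D2:**
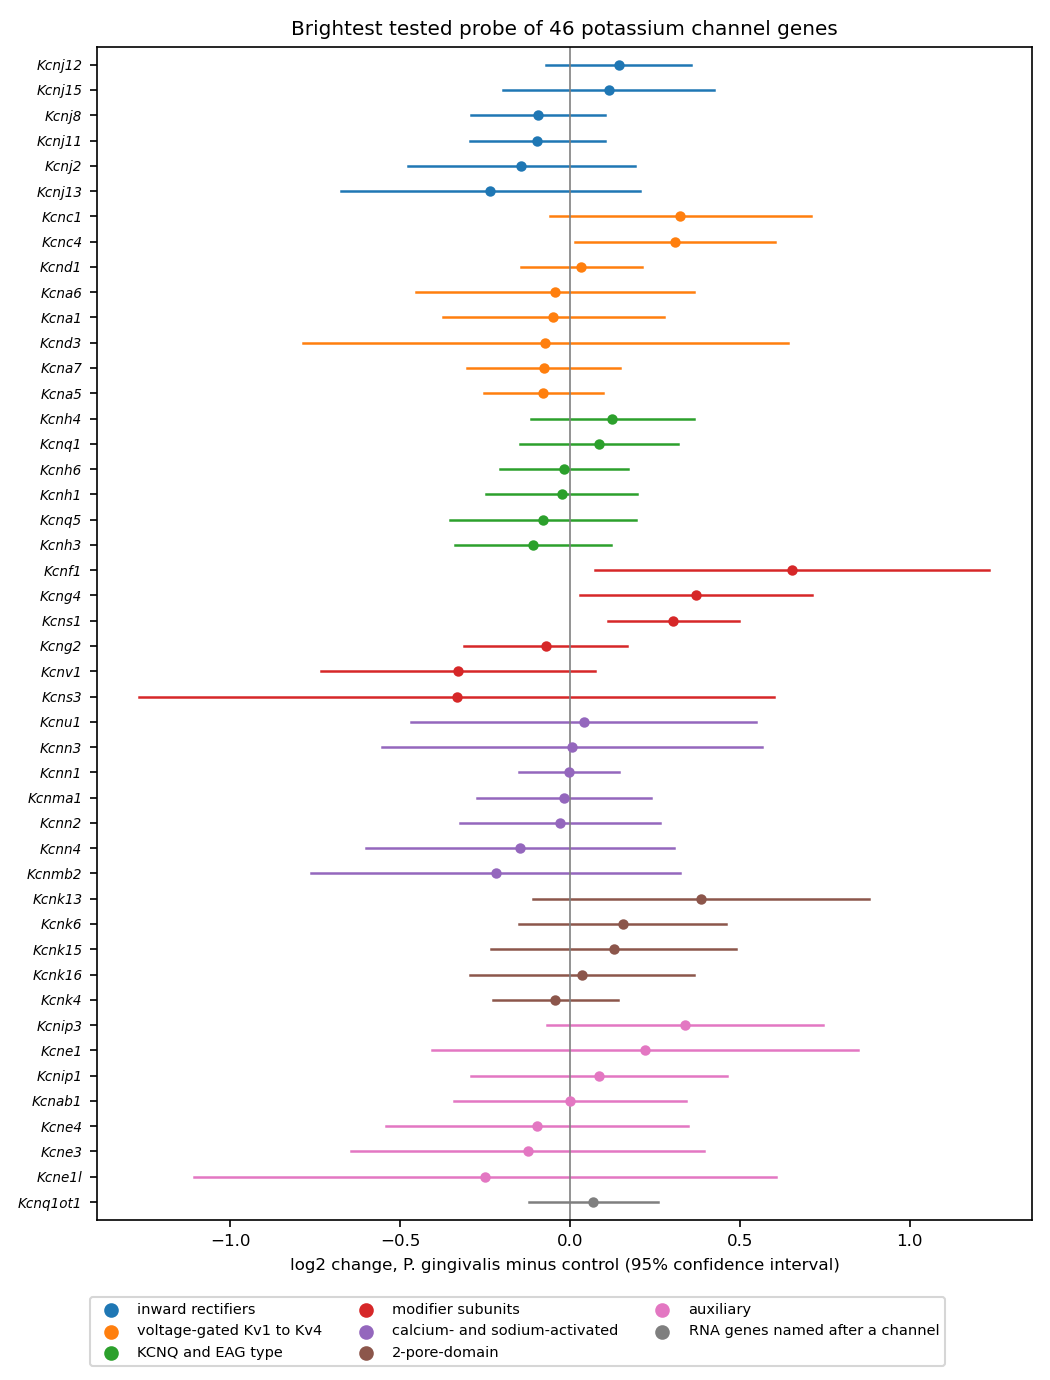
Log2 change in signal, P. gingivalis minus control, of the brightest tested probe of 46 genes (points) with its 95% confidence interval from limma (lines), coloured by family. The intervals of 4 genes, Kcnf1, Kcng4, Kcns1 and Kcnc4, lie above 0 and no interval lies below it.

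Of the 6 tested modifier subunits, 3 had an unadjusted p under 0.05 with higher signal after P. gingivalis (Kcns1, Kcnf1 and Kcng4), and the other 3 had lower signal and did not (Kcng2 -0.07, Kcns3 -0.33 and Kcnv1 -0.33). The median change of the 6 was 0.12. Over all genes, 10.7% had such a p, 4.88% with higher signal. None of the 6 passed after adjustment, and whether the families differ was not tested.

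Kcns1 had log2 levels of -3.04, -3.22, -3.03 and -3.12 on P. gingivalis arrays 1 to 4, against -3.33, -3.55, -3.27 and -3.48 on control arrays 1 to 4. A level here is the log2 processed signal minus the array's 75th percentile, so negative values are dimmer than that percentile. The 4 P. gingivalis arrays all lay above the 4 control arrays, and Kcns1 was the only gene of the 49 whose groups did not overlap (2.04%, against 7.07% of all genes; its probe was 1 of 78, against 6.67% of all probes). Signal was 1.23-fold higher (95% confidence interval 1.08 to 1.41, log2 change 0.30 ± 0.08 SE, limma unadjusted p = 0.00647, adjusted p = 0.329). Under the groups of the value table the change was 0.06, and over the 4 arrays that both sources place alike it was 0.36.

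Kcnf1 had log2 levels of -0.83, -1.58, -0.79 and -1.26 on P. gingivalis arrays, against -2.22, -1.86, -1.15 and -1.85 on control arrays. The groups overlapped through control 3, the brightest control, which lay above P. gingivalis 2 and 4. Signal was 1.57-fold higher (interval 1.05 to 2.35, log2 change 0.65 ± 0.25 SE, limma adjusted p = 0.414), the only change over 0.5 on the log2 scale among the 49. It was 0.86 without control 3, 0.36 under the groups of the value table and 1.01 over the 4 arrays alike in both sources.

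Kcng4 had log2 levels of -0.15, -0.36, -0.07 and -0.20 on P. gingivalis arrays, against -0.77, -0.71, -0.11 and -0.67 on control arrays. Control 3 lay inside the range of the P. gingivalis arrays and the other controls below it. The change was 0.37 ± 0.15 SE, or 1.29-fold (interval 1.02 to 1.64, limma adjusted p = 0.429). The dimmer Kcng4 probe printed above had levels of -3.47, -3.89, -3.66 and -4.39 on P. gingivalis arrays, against -4.40, -4.62, -3.80 and -4.21 on control arrays, with a log2 change of 0.40 (limma adjusted p = 0.536). There too control 3 was the brightest control. Under the groups of the value table the change of the brighter probe was 0.24, over the 4 arrays alike in both sources 0.61.

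Kcnv1, another modifier subunit, had -3.60, -4.10, -4.10 and -4.32 on P. gingivalis arrays, against -3.93, -3.83, -3.70 and -3.34 on control arrays. P. gingivalis 1 lay within the control range and the other 3 P. gingivalis arrays below it. The log2 change was -0.33 (fold 0.796, interval 0.602 to 1.05, limma adjusted p = 0.513), -0.00205 under the groups of the value table, and -0.47 (without P. gingivalis 1) to -0.21 (without control 4) when 1 array was left out.

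Kcnc4 and Kcnc1 encode voltage-gated subunits of the same subfamily, Kcnc1 a fast delayed rectifier that repolarises cells quickly. Kcnc4 had log2 levels of 3.51, 3.66, 3.40 and 3.79 on P. gingivalis arrays, against 3.07, 3.58, 3.31 and 3.16 on control arrays. The groups overlapped through control 2 alone. Signal was 1.24-fold higher (interval 1.01 to 1.52, log2 change 0.31 ± 0.13 SE, limma adjusted p = 0.433), but the second Kcnc4 probe, printed above, had a log2 change of 0.08 (limma adjusted p = 0.736). Under the groups of the value table the change of the brighter probe turned to -0.04.

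Kcnc1 had log2 levels of 3.37, 3.55, 3.31 and 3.42 on P. gingivalis arrays, against 3.28, 2.57, 3.12 and 3.39 on control arrays, with control 2 the dimmest and control 4 within the P. gingivalis range. The change was 0.32 ± 0.17 SE (limma adjusted p = 0.503), 0.15 without control 2 and 0.12 under the groups of the value table. The other 2 Kcnc1 probes, printed above, had log2 changes of 0.36 (limma adjusted p = 0.451) and -0.09 (limma adjusted p = 0.782), and control 2 was the dimmest array for both.

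**Figure D3:**
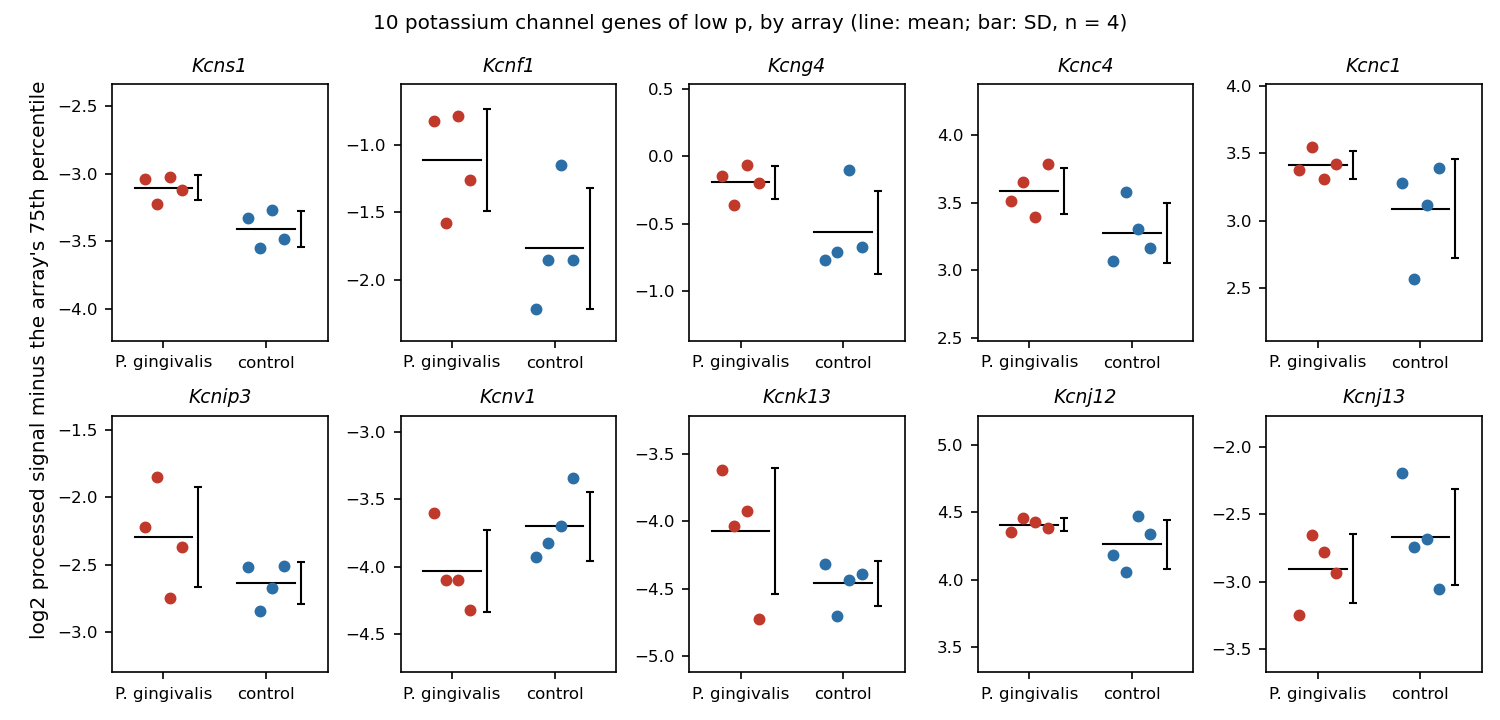
Log2 level (processed signal minus the array's 75th percentile) on each array for 10 genes with low p-values, P. gingivalis arrays left and control arrays right in each panel. In Kcns1 the groups do not overlap, while in Kcnf1 and Kcng4 control 3 lies among the P. gingivalis arrays.

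The choice of array mattered for the count of low p-values, among these probes and among all. The 4 probes at unadjusted p under 0.05 became 2 of 78 (2.56%) without control 1, where 8.91% of all probes had such a p. Without control 3 they became 8 (10.3%), where 12.7% of all did. With the value-table groups the count was 2 of 78, where 3.87% of all probes had such a p, and over the 4 arrays placed alike by both sources 6 did, where 9.12% of all did. In the value table itself the count was 2 of 59 probes (3.39%), where 3.66% of all probes had such a p. After quantile scaling it was 5 of 78 (6.41%, against 11.3% of all probes). Without a filter on dim probes it was 11 of 179 (6.15%, against 8.31% of all probes). Kcns1 kept an unadjusted p under 0.05 in 8 of the 8 fits that left out 1 array, Kcnf1 in 3, Kcng4 in 2 and Kcnc4 in 2. Of the 26 tested genes named with values, 16 turned direction under the groups of the value table and 7 over the 4 arrays placed alike.

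**Figure D4:**
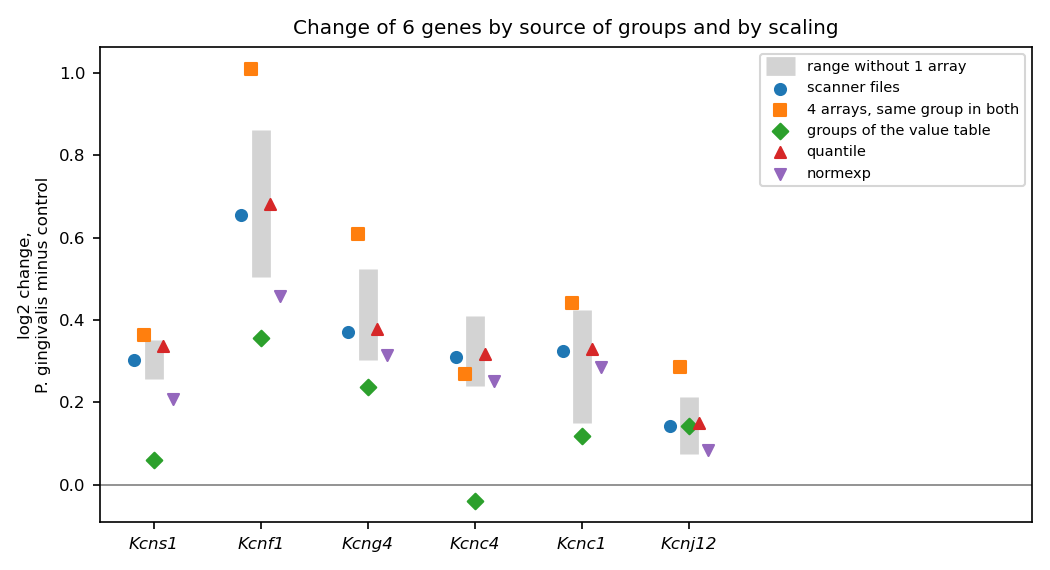
Log2 change (y axis), P. gingivalis minus control, of 6 genes under the groups of the scanner files, over the 4 arrays placed alike by both sources, under the groups of the value table, and after quantile or normexp scaling; grey bars give the range when 1 array is left out. Kcnc4 turns to -0.04 under the groups of the value table, while the other 5 stay above 0.

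None of the 6 tested inward rectifiers had an unadjusted p under 0.05. Kcnj12 and Kcnj2 encode the strong inward rectifiers of skeletal muscle. Kcnj12 had levels of 4.35, 4.46, 4.43 and 4.38 on P. gingivalis arrays, against 4.19, 4.06, 4.47 and 4.34 on control arrays. The groups overlapped through control 3, and the change was 0.14 (interval of the fold 0.952 to 1.28). It was 0.28 over the 4 arrays placed alike by both sources (limma unadjusted p = 0.0474), 0.21 without control 3 (limma unadjusted p = 0.0378) and 0.07 without control 2. Kcnj2 had 3.69, 3.45, 4.09 and 4.0 on P. gingivalis arrays, against 4.10, 4.02, 3.81 and 3.88 on control arrays, a log2 change of -0.14 (0.718 to 1.14). P. gingivalis 1 and 2 were the dimmest arrays. Its second probe had a change of -0.11. Kcnj11 and Kcnj8 encode the pores of the ATP-sensitive channels, Kcnj11 in the fibre and Kcnj8 chiefly in vascular cells. Kcnj11 had 1.62, 1.5, 1.54 and 1.48 on P. gingivalis arrays, against 1.66, 1.53, 1.84 and 1.5 on control arrays, a change of -0.10 (0.814 to 1.07), with 0.10 at its second probe. Kcnj8 had 2.52, 2.54, 2.69 and 2.70 on P. gingivalis arrays, against 2.79, 2.64, 2.55 and 2.84 on control arrays, a change of -0.09 (0.817 to 1.07). Kcnj13, a channel best known from epithelia, had -3.25, -2.65, -2.78 and -2.93 on P. gingivalis arrays, against -2.20, -2.75, -2.68 and -3.05 on control arrays, a change of -0.24, and of -0.36 (without control 4) to -0.08 (without control 1) when 1 array was left out. Groups overlapped for each of these genes.

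Of the 10 tested voltage-gated pore-forming genes 3 were higher and 7 lower, with a median change of -0.05. Kcna7, a channel of heart and skeletal muscle, had 0.28, 0.05, 0.06 and 0.16 on P. gingivalis arrays, against 0.35, -0.03, 0.31 and 0.21 on control arrays, a change of -0.08 (0.81 to 1.11). Kcna5, a rapidly activating channel of heart and smooth muscle, had -0.81, -0.59, -0.78 and -0.61 on P. gingivalis arrays, against -0.69, -0.66, -0.51 and -0.62 on control arrays, a change of -0.08 (0.838 to 1.07). The groups overlapped for both genes.

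The 7 tested Kcnq and Kcnh genes, of which Kcnq genes carry slow voltage-gated currents, ranged in change between -0.11 and 0.12. Kcnq5 had -0.07, 0.17, 0.23 and 0.17 on P. gingivalis arrays, against -0.07, 0.35, 0.11 and 0.41 on control arrays, a change of -0.08. Its groups overlapped, with control 2 and 4 the brightest arrays.

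Kcnq1, a slow voltage-gated pore best known from heart and epithelia, was read by overlapping probes whose values disagreed. A pair of them shares 51 of 60 bases, 1 starting 9 bases before the other on mm9. The first 30 bases of each are printed, with the bases that both hold in capitals.
Kcnq1, chr7:150612896-150612955, plus strand: GTATGATCTTGATTGAGAGACTTTTCCAAA
Kcnq1, chr7:150612887-150612946, plus strand: aatttcgtaGTATGATCTTGATTGAGAGAC
The first had log2 levels of -3.55, -3.78, -3.92 and -3.65 on P. gingivalis arrays, against -3.71, -3.69, -3.86 and -3.97 on control arrays, a change of 0.08 ± 0.10 SE. The second had -3.67, -3.71, -4.49 and -4.23 on P. gingivalis arrays, against -3.97, -3.61, -3.46 and -3.68 on control arrays, a change of -0.35 ± 0.20 SE. The values of the 2 probes thus lay on opposite sides of 0 although they pair with nearly the same stretch, and both intervals include 0. The other 2 tested Kcnq1 probes had log2 changes of 0.13 and 0.25, and no probe of this gene had an unadjusted p under 0.05 in the main fit. Some did under alternatives. After normexp the first probe and these 2 were higher, with limma unadjusted p of 0.0029, 0.0056 and 0.0023. With that correction 29.7% of all probes had p under 0.05. Over the 4 arrays placed alike by both sources the second probe had a change of -0.57 (limma unadjusted p = 0.0304). Kcnq1ot1, a long RNA transcribed antisense from within Kcnq1 at an imprinted locus, had 2.35, 2.37, 2.46 and 2.48 on P. gingivalis arrays, against 2.36, 2.47, 2.14 and 2.42 on control arrays. Its 4 tested probes had log2 changes of 0.07, -0.11, -0.28 and -0.17.

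**Figure D5:**
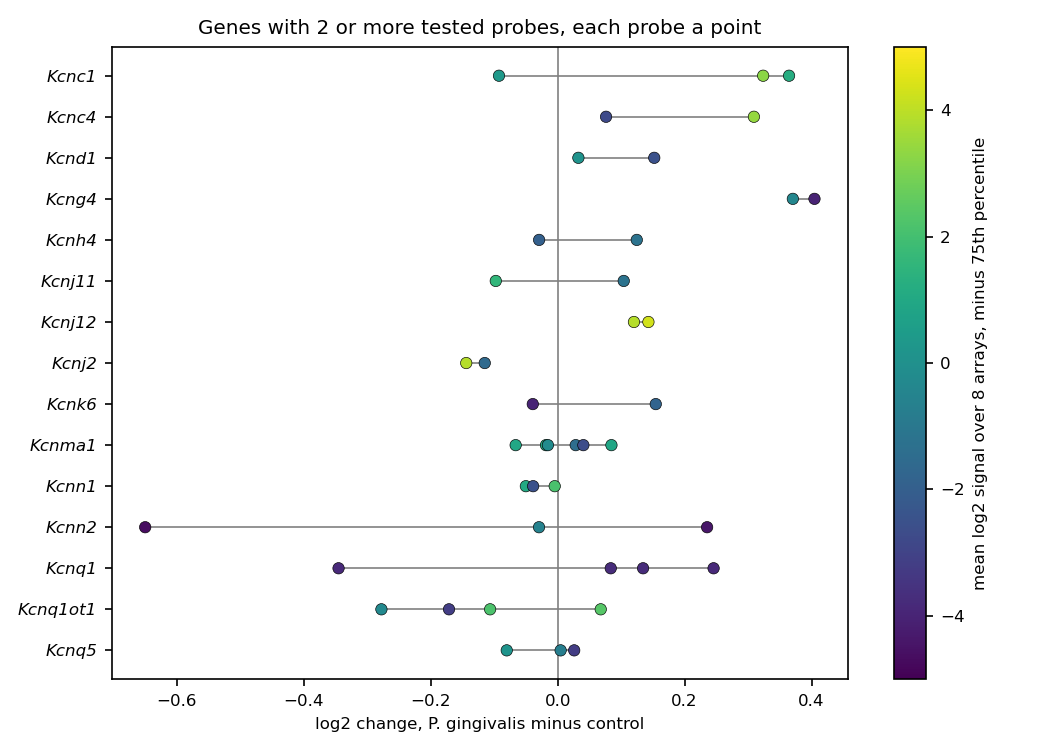
Log2 change, P. gingivalis minus control, of every tested probe of 15 potassium channel genes with at least 2 tested probes. Probes of Kcnc1, Kcnn2, Kcnq1 and Kcnq1ot1 lie on both sides of 0 and differ by over 0.3.

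None of the 7 tested calcium- and sodium-activated genes had an unadjusted p under 0.05, and their median log2 change was -0.02. Kcnma1, the pore of the large-conductance channel, had 1.24, 1.06, 1.37 and 0.93 on P. gingivalis arrays, against 1.18, 1.23, 1.28 and 0.98 on control arrays, and its 6 tested probes had log2 changes of -0.07 to 0.08. Kcnn1 to Kcnn3 encode small-conductance calcium-activated channels. Kcnn1 had 2.22, 2.08, 2.09 and 2.14 on P. gingivalis arrays, against 2.05, 2.16, 2.21 and 2.13 on control arrays, with a fold interval of 0.902 to 1.1. Kcnn2 had -0.77, -0.57, -0.37 and -0.63 on P. gingivalis arrays, against -0.49, -0.88, -0.41 and -0.43 on control arrays, a change of -0.03, while its dimmer probes had 0.24 and -0.65. The last of these was well above background on 1 P. gingivalis and 3 control arrays. Kcnn3, known to reappear in denervated fibres, had -3.49, -4.13, -4.18 and -3.45 on P. gingivalis arrays, against -3.34, -4.03, -4.25 and -3.67 on control arrays, a change of 0.01 with a fold interval of 0.681 to 1.48. Kcnn4, the intermediate-conductance channel of blood and immune cells, had -3.10, -3.57, -3.14 and -2.72 on P. gingivalis arrays, against -2.73, -3.37, -3.04 and -2.79 on control arrays, a change of -0.15. The groups overlapped for all 5 genes.

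The 5 tested 2-pore-domain genes, whose products carry background currents, had a median change of 0.13, with 4 higher and 1 lower and none with an unadjusted p under 0.05. Kcnk13, known from microglia, had -3.62, -4.03, -3.92 and -4.72 on P. gingivalis arrays, against -4.31, -4.70, -4.43 and -4.39 on control arrays. P. gingivalis 4 lay below the control arrays and the other 3 P. gingivalis arrays above them. The change was 0.39 (0.928 to 1.84, limma adjusted p = 0.529), 0.19 over the 4 arrays placed alike, -0.20 under the groups of the value table, and 0.23 (without P. gingivalis 1) to 0.60 (without P. gingivalis 4) when 1 array was left out. The groups of Kcnk6 overlapped. It had -1.71, -1.63, -1.78 and -1.87 on P. gingivalis arrays, against -2.30, -1.85, -1.73 and -1.73 on control arrays, a change of 0.15, with -0.04 at its second probe.

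Among the 7 tested auxiliary genes, 3 were higher and 4 lower. Kcnip3, a calcium-binding partner of Kcnd-type channels, had -2.22, -1.85, -2.75 and -2.37 on P. gingivalis arrays, against -2.52, -2.84, -2.67 and -2.51 on control arrays. P. gingivalis 3 lay within the control range and the others above it. The change was 0.34 (0.954 to 1.68, limma adjusted p = 0.507), 0.12 over the 4 arrays placed alike, -0.22 under the groups of the value table, and 0.19 (without P. gingivalis 2) to 0.49 (without P. gingivalis 3) when 1 array was left out. Kcne3, which joins Kcnc4 in skeletal muscle channels, had -4.12, -3.19, -3.94 and -3.67 on P. gingivalis arrays, against -3.73, -3.95, -3.57 and -3.17 on control arrays, a change of -0.12. Kcnab1, a cytoplasmic subunit of Kcna-type channels, had -0.98, -0.66, -1.06 and -0.87 on P. gingivalis arrays, against -1.20, -0.54, -1.03 and -0.80 on control arrays. Its means differed by less than 0.01, with a fold interval of 0.788 to 1.27.

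Promoters were examined for the genes with low p and are printed for the pair that holds the E-box letters CAGCTG, a sequence that muscle regulatory factors of the MyoD type are known to bind. The 250 bases before the start of each gene are from RefSeq (GRCm38.p6), minus strand, 5′ to 3′, with CAGCTG in capitals.
Kcns1, chr2:164171114-164171363: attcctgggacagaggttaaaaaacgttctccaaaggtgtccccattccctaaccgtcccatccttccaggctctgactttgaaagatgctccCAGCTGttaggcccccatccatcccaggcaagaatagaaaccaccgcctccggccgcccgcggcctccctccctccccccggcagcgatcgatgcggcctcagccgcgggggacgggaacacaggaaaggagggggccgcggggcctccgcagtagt
Kcng4, chr8:119635681-119635930: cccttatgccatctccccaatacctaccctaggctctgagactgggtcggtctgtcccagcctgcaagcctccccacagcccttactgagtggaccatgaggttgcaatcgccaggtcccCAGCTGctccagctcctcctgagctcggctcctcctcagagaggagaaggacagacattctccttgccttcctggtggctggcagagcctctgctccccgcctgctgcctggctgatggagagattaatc
The letters CAGCTG, which read the same on both strands, were in 26.7% of the 45 promoters matched to 35 of the 49 tested genes, 19.6% of the 51 promoters of 36 untested ones and 13.0% of all 32851 promoters of the same length. The letters TATAAA, sought on both strands, were in 2.22%, 3.92% and 12.4%. Median GC content was 58%, 59.2% and 52.4%. Neither set of letters was in the windows of Kcnc4 and Kcnf1. A match says only that these letters are there.

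A list of 35 other genes of muscle excitability served as company: sodium, chloride and calcium channels, the sodium pump and subunits that partner potassium channels. Of the 32 tested, 0 passed the limma adjusted test, 1 had a higher signal at unadjusted p under 0.05 and 0 a lower one (3.13%, against 10.7% of all genes). That gene was Scn4a, the sodium channel of the adult fibre, with a log2 change of 0.18 ± 0.08 SE (limma adjusted p = 0.444). In all, 14 were higher and 18 lower. Clcn1, the chloride channel that carries most of the resting conductance of the fibre, had a log2 change of 0.07. Abcc8 and Abcc9, the sulfonylurea receptors that pair with Kcnj11 and Kcnj8, had -0.19 and -0.11.

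Marker genes of the cell types in the muscle are given beside these values, as summed linear signal with each array in units of its 75th percentile. The 5 fibroblast genes summed to 170 to 195 in P. gingivalis muscle and 134 to 175 in control muscle, and 3 of them had unadjusted limma p under 0.05 (log2 changes of 0.65 for Lum, 1.01 for Col1a1 and 0.94 for Col3a1). The 4 macrophage genes summed to 8.27 to 11.5 in P. gingivalis muscle and 6.00 to 8.17 in control muscle, with 3 higher and 1 lower (Adgre1 -0.04), and with Csf1r at 0.35 and Cd163 at 0.64 of unadjusted limma p under 0.05. The 7 smooth-muscle and pericyte genes summed to 356 to 389 in P. gingivalis muscle and 316 to 348 in control muscle. For these last 2 lists the ranges did not overlap, though of the smooth-muscle and pericyte genes 5 were higher and 2 lower (Cnn1 -0.37 and Notch3 -0.06), with Acta2 at 0.16 (limma unadjusted p = 0.037). The 4 endothelial genes summed to 5.56 to 7.08 in P. gingivalis muscle and 6.75 to 8.86 in control muscle, all 4 lower, with Kdr at -0.59 (limma unadjusted p = 0.00378). Schwann-cell genes summed to 9.55 to 13.0 in P. gingivalis muscle and 9.40 to 11.7 in control muscle, with 4 of the 6 lower, among them Mbp at -0.35 (limma unadjusted p = 0.0147). The 4 neuron genes summed to 13.3 to 16.1 in P. gingivalis muscle and 11.9 to 14.6 in control muscle. Skeletal muscle fibre genes summed to 4755 to 4997 in P. gingivalis muscle and 4288 to 4782 in control muscle. Slow-fibre genes summed to 5.55 to 17.8 in P. gingivalis muscle and 5.82 to 13.9 in control muscle, and adipocyte genes to 3.40 to 10.7 in P. gingivalis muscle and 4.16 to 7.82 in control muscle. T-cell genes summed to 2.23 to 2.60 in P. gingivalis muscle and 2.44 to 2.71 in control muscle. Syt1 of neurons, Cd3g of T cells and Tnni3 of heart were never well above background. The part of these cell types in the signal of the potassium channel genes was not tested.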

How the data were processed

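Each of 8 scanner files was assigned to a group by its sample's label. Per the file headers, the deposited spot intensity came from Agilent Feature Extraction 11.0.1.1 (11.1 per the submitters' processing notes) as 1-colour, background-subtracted and detrended signal, with probe positions on mm9. The authors also deposited log2 values for 24764 probes, whose normalization is not given in the sources used here. Each column of that table correlated with 1 scanner array at 0.833 to 0.880 (0.0784 or less for the runner-up); the partner carried the same label for 2 columns and the same group for 4.

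Intensities were put on the log2 scale, each array's 75th percentile was subtracted, and spots of a probe were averaged after outlier spots were left out. No spot was saturated. Probes well above background on at least 4 of 8 arrays (31649 of 56605) were tested with limma 3.58.1 in R 4.3.3 (lmFit, eBayes), all together, with Benjamini-Hochberg adjustment. Of these, 8 lacked a value on an array, none of them a potassium channel probe. Each gene was represented by its brightest tested probe. The fit was tested on simulated data. A permutation test planned for the number of detected genes per array was not run, and ranges are given. Correlations between arrays were 0.991 to 0.995, and the number of arrays limits the precision.

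RefSeq accessions matched 154 of the 179 probes, none to another symbol. The members and lists were chosen with earlier results of these data known. Genes named with values were the 12 of lowest p, the 10 of highest signal, 22 chosen for a role in muscle or as markers of its other cells (16 tested), any well above background on all 4 arrays of 1 group and at most 1 of the other (0), and 4 whose probes differed in sign by over 0.3. Of these, 3 genes are counted in the totals but not reported here. Deviations of same-numbered arrays correlated at 0.0069 to 0.0629, none over 0.1. The replicate number equals the slide column in both groups. A low correlation cannot show whether the samples were paired, and the main fit used no pairing. Alternatives were quantile and normexp (offset 50) scaling, other filters, an intensity trend, the value table and its groups, a replicate block and leaving out each array.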

Additional observations from a re-analysis of the deposited data

Results flagged for a closer look

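Among the arrays of each group, 1 value stood apart by Dixon's criterion at 95%. For the brighter Kcng4 probe, control 3 had a log2 level of -0.11, while the other control arrays lay between -0.77 and -0.67. The criterion was applied to 52 groups of 4 arrays, in which chance would give about 2.6 such values, or 1 in 20. Without control 3 the Kcng4 change was 0.52 (limma adjusted p = 0.212), against 0.37 over all arrays. Control 3 is 1 of the 4 arrays that the value table places in the other group.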

How the results depend on the processing

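No potassium channel probe passed the adjusted test under any of the alternatives run (0 throughout, lowest limma adjusted p 0.0545, Kcnj15 after normexp). The count at unadjusted p under 0.05, 4 as reported, was 2 under the groups of the value table, 2 in the value table itself, 11 without a filter on dim probes, 23 after normexp, and 2 (without control 1) to 8 (without control 3) when 1 array was left out. Of all tested probes 11.2% had such a p as reported, 3.87% under the groups of the value table and 3.66% in that table itself. The share was 8.31% without the filter, 29.7% after normexp, 8.91% without control 1 and 12.7% without control 3. With the replicate number as a block the count of potassium channel probes was 4, and the block changed no other call. The median change of the tested genes, -0.025 as reported, was 0.034 over the 4 arrays placed alike by both sources, 0.037 under the groups of the value table, 0.052 in the value table itself, 0.042 without the filter, 0.10 after normexp, and -0.043 to 0.013 without 1 array. The median over all tested probes was -0.016 as reported, -0.024 over the 4 arrays and -0.0091 under the groups of the value table. It was -0.00045 in the value table itself, 0.030 without the filter, 0.051 after normexp and -0.019 to -0.0096 without 1 array. Genes above background numbered 75 with a laxer detection call, and 33 where over 50% of a gene's probes were required, in place of 49. Excitability genes at unadjusted p under 0.05 numbered 0 under the groups of the value table, in the value table itself and without the filter, 2 after quantile scaling, 3 with an intensity trend or after normexp, and 0 to 2 without 1 array, against 1 as reported. Of the 26 tested genes named with values, 6 kept their direction under every alternative that gave a value: Kcnc1, Kcnf1, Kcng4, Kcnj12, Kcnk6 and Kcns1. Over the 4 arrays placed alike, the log2 change turned to 0.034 for Kcne3, 0.0081 for Kcnn1, 0.19 for Kcnn2, -0.13 for Kcnn3, 0.12 for Kcnn4, -0.086 for Kcnq1 and 0.056 for Kcnq5. With value-table groups, the log2 change turned to 0.055 for Kcna5, 0.024 for Kcna7, -0.039 for Kcnc4, 0.16 for Kcne3, -0.22 for Kcnip3, 0.011 for Kcnj11, 0.13 for Kcnj2, 0.071 for Kcnj8, -0.20 for Kcnk13, 0.013 for Kcnn1, 0.22 for Kcnn2, -0.14 for Kcnn3, 0.27 for Kcnn4, -0.17 for Kcnq1, -0.010 for Kcnq1ot1 and 0.14 for Kcnq5. After normexp, the log2 change turned to 0.13 for Kcne3, 0.014 for Kcnj13, 0.015 for Kcnn2, 0.068 for Kcnn4 and 0.067 for Kcnv1. After quantile scaling, the log2 change turned to 0.020 for Kcnab1. In the value table itself, the log2 change turned to 0.088 for Kcna5, 0.052 for Kcna7, -0.056 for Kcnc4, 0.059 for Kcne3, -0.19 for Kcnip3, 0.043 for Kcnj11, 0.18 for Kcnj2, 0.085 for Kcnj8, -0.13 for Kcnk13, 0.074 for Kcnn1, 0.24 for Kcnn2, -0.021 for Kcnn3, 0.21 for Kcnn4 and 0.12 for Kcnq5. Without 1 array it ran from -0.10 to 0.12 for Kcnab1, -0.31 to 0.019 for Kcne3, -0.092 to 0.057 for Kcnma1, -0.036 to 0.019 for Kcnn1, -0.14 to 0.033 for Kcnn2 and -0.14 to 0.17 for Kcnn3. The cause of these turns was not tested. Genes not well above background have no usable level here, and the number of arrays limits what the others can show.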
